A study of Mus musculus with 44 samples.

Results

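The 36 genes described here encode subunits of the receptors for glutamate and GABA, the main excitatory and inhibitory transmitters of the brain. They were chosen by gene name out of 21887 protein-coding genes on the chromosomes of the peak tables. Glutamate receptors supplied 24 of them, made up of 4 AMPA, 5 kainate, 7 NMDA and 1 delta channel subunit and of 7 metabotropic receptors, with 1 in group I, 2 in group II and 4 in group III. GABA receptors supplied 12, made up of 10 GABA-A subunits (5 alpha, 2 beta, 2 gamma and 1 delta) and 2 GABA-B subunits. A peak was assigned to a gene when it overlapped, by at least 1 base, the gene's mm10 span extended by 5 kb at either end.

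The study used adult mice labelled with the genotype Polg(D181A), called Polg here, or wild type (WT). Polg encodes the catalytic subunit of the mitochondrial DNA polymerase. The mice belong to a series on a model of bipolar disorder. In the labels this D181A genotype comes with no promoter and no cell type that drives it. Acetylation of histone H3 at lysine 27 (H3K27ac) was measured by ChIP-seq in NeuN-stained, sorted nuclei of the paraventricular thalamic nucleus (PVT) and likewise of the cerebral cortex (COR), the caudate putamen (CP) and the nucleus accumbens (NAC), each with 2 Polg and 2 WT libraries. Open chromatin was measured by ATAC-seq in the PVT in 2 Polg and 2 WT libraries. RNA-seq covered 5 groups of 4 PVT libraries each, namely Polg euthymic COX-positive, Polg euthymic COX-negative, Polg depressive COX-positive, Polg depressive COX-negative and WT euthymic COX-positive. All WT RNA libraries were thus euthymic and COX-positive. The strain label was C57BL/6 for every library outside the ATAC set, where the Polg libraries were labelled C57BL/9 and C57BL/10 and the WT libraries C57BL/7 and C57BL/8, so genotype and strain label cannot be told apart there.

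AMPA, kainate and NMDA receptors are glutamate-gated cation channels built from 4 subunits, and the subunits present set speed, calcium flow and modulation. Metabotropic glutamate receptors act through G proteins: group I receptors raise postsynaptic excitability, whereas groups II and III mostly damp transmitter release. GABA-A receptors are chloride channels with 5 subunits, and GABA-B receptors are G protein-coupled dimers that need both of their subunits. The PVT is a midline thalamic nucleus of mainly excitatory relay neurons that project to the nucleus accumbens, amygdala and prefrontal cortex. H3K27ac marks active promoters and enhancers, and ATAC-seq marks accessible DNA.

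Promoters of 26 of the 36 genes could be matched in RefSeq (GRCm38.p6). The 250 bases before the start of Gabbr2 (chr4:46991715-46991964, minus strand), Grik3 (chr4:125490446-125490695, plus strand), Grm3 (chr5:9725353-9725602, minus strand) and Gabra6 (chr11:42321073-42321322, minus strand) are printed 5′ to 3′, with every CG dinucleotide in capitals. Gabbr2, Grik3 and Grm3 are shown because their H3K27ac differed between regions, and Gabra6 as an example with few CG and no peak over it in any of the 5 chromatin tables.
Gabbr2: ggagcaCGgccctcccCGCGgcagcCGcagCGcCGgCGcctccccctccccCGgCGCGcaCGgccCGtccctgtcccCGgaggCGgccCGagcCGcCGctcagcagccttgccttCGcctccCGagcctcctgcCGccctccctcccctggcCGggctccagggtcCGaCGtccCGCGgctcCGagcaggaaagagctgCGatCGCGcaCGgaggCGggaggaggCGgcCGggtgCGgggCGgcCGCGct
Grik3: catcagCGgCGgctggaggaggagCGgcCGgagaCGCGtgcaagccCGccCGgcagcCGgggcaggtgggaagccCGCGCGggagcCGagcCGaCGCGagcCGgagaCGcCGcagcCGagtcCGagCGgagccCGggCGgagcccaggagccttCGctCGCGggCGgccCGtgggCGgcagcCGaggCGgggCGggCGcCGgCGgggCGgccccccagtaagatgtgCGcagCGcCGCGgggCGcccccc
Grm3: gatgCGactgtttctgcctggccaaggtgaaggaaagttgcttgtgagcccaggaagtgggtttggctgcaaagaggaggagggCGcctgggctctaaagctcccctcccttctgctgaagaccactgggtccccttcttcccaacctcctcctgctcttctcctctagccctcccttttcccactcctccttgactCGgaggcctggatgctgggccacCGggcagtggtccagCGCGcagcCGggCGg
Gabra6: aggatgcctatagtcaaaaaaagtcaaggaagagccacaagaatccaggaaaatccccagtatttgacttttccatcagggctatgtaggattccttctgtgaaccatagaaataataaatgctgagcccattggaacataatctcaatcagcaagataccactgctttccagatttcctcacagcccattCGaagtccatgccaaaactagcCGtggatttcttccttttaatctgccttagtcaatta
The Gabbr2 window held 37 CG, the Grik3 window 42, the Grm3 window 8 and the Gabra6 window 2, while the lowest counts were 0 in Gabra3 and 1 in Gabrg1. At least 10 CG stood in 14 of the 26 windows, against 37.8% of 32851 RefSeq promoter windows of the same length, and the median was 13.5 CG among the receptor genes and 6 over all windows. The letters GGGCGG on either strand (CCGCCC on the other) also stood in 14 of 26 windows, against 32.7% of all windows; this motif contains CG, so the counts overlap. An H3K27ac peak lay over 22 of the 26 windows in the PVT, 15 in COR, 11 in CP and 18 in NAC, and an ATAC peak over 12 in the PVT. These were 84.6%, 57.7%, 42.3% and 69.2% of the receptor windows in the H3K27ac tables and 46.2% in the ATAC table, against 39.5%, 36%, 20.5%, 35.7% and 48.7% of 17492 windows, 1 for each matched protein-coding gene. CP had the lowest share among receptor genes and among all genes alike. The motif matches describe letters in a window only.

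Total counts in peaks were 52759552 to 146450422 per library in the PVT, 52566179 to 197650530 in COR, 12048787 to 101443484 in CP and 6415127 to 80516545 in NAC. They were 2932270 to 8040451 in the ATAC libraries and 26719334 to 115285349 over genes in the RNA libraries. The WT libraries numbered 2 of COR, CP and NAC were the sparsest of their tables, with up to 80.8% of peaks at 0 counts. The Polg gene itself had 34.3 and 40.1 CPM (counts scaled to a common library size) of H3K27ac in PVT Polg libraries, against 8.31 and 12.4 CPM in WT libraries. The values were 38.3 and 61.2 CPM in COR Polg libraries, against 19.005 and 63.8 CPM in WT; 144 and 129 CPM in CP Polg libraries, against 56.9 and 28.1 CPM in WT; and 47.5 and 42.5 CPM in NAC Polg libraries, against 3.10 and 0 CPM in WT. In the ATAC table it had 69.1 and 49.3 CPM in Polg libraries, against 38.0 and 35.9 CPM in WT. The genotypes overlapped in COR alone, and no adjusted p was under 0.05. Polg RNA was 0.559, 2.40, 0.825 and 199.9 CPM in Polg euthymic COX-positive libraries, against 3.02, 0.946, 3.69 and 3.02 CPM in WT libraries, which overlap. Whether reads came from a transgene or the endogenous gene was not separated here. Summed H3K27ac over thalamic neuron markers was highest in the PVT (3537 to 4969 CPM, against 561 to 626 in COR, 359 to 435 in CP and 164 to 398 in NAC), over cortical markers in COR (728 to 1111 CPM, against 0 to 239 elsewhere) and over striatal markers in CP and NAC (2908 to 7213 CPM, against 921 to 1786 in PVT and COR). These sums rest on 3 of 6, 3 of 6 and 5 of 6 markers with a peak in all 4 tables. These marker sums differ between the same regions as the results below, and their part in those results was not tested. Summed H3K27ac over 3 of 6 astrocyte markers was 129.4 to 151 CPM in the PVT, above all other libraries, with 60.1 to 101.2 in COR, 56.7 to 129.3 in CP and 60.6 to 98.3 in NAC. Over 4 of 6 oligodendrocyte markers it was 511 to 570.4 CPM in the PVT, below all COR and CP libraries, with 646 to 803 in COR, 611 to 774 in CP and 470.6 to 691.5 in NAC. The part of these glial markers in the differences between regions was not tested either. Over all regions it was 2441 to 5254 CPM over neuron markers, 29.0 to 99.9 CPM over microglia markers and 0 to 162 CPM over endothelial markers. In such bulk libraries, fewer nuclei of a type and less acetylation per nucleus cannot be told apart.

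Receptor genes had a larger share of their window under H3K27ac peaks than the median protein-coding gene in each of the 4 regions. H3K27ac peaks were assigned to 36 of 36 receptor genes in the PVT, 33 in COR, 34 in CP and 35 in NAC, and ATAC peaks to 34. These were 100%, 91.7%, 94.4%, 97.2% and 94.4%, against 72%, 73.7%, 69.5%, 72% and 76% of all protein-coding genes. The receptor genes without a peak were Grin2c in CP, Grm6 in COR, CP and NAC, Gabra6 and Gabrg1 in COR, and Grin3b and Gabra6 in the ATAC table. Grm6 is known for its role in retinal bipolar cells and Gabra6 for cerebellar granule cells. H3K27ac peaks that touched a receptor window summed to 1380 kb in the PVT, 1120 kb in COR, 512 kb in CP and 875 kb in NAC. This covered length, here and below, counts each peak whole for every gene it touches, including bases outside the window. The median receptor gene had 9.67% of its window under peaks in the PVT, 8.49% in COR, 4.59% in CP and 7.47% in NAC. The median of the 21887 protein-coding genes, with or without a peak, had 4.20%, 4.40%, 1.72% and 3.38%. Single peaks over receptor genes were about as wide as others in the PVT, with a median of 449 bases against 445 over all peaks, and likewise in CP with 250 and 250, while the medians were 650 and 578 bases in COR and 587 and 499 in NAC. ATAC peaks, with a median of 328 bases over receptor genes and in the whole table, covered 2.04% of the median receptor window, against 1.99% over those genes. Covered length follows how much each table's own peak set called, so these lengths describe peak sets and not levels.

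**Figure D1:**
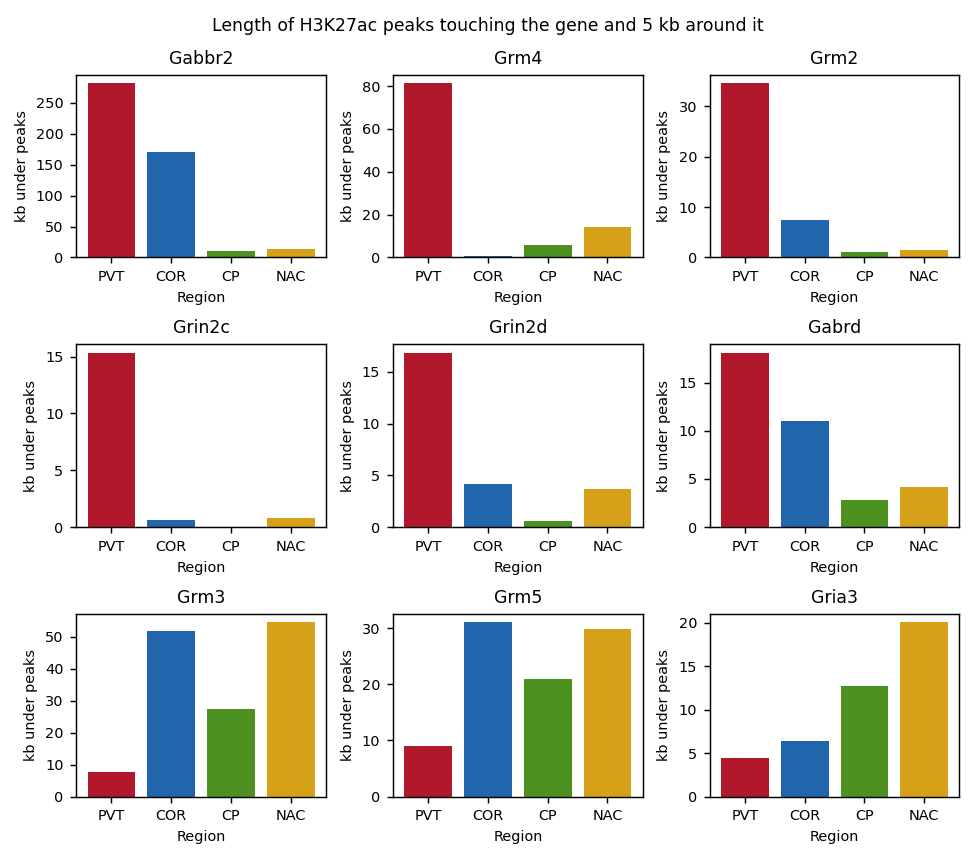
Whole length of the H3K27ac peaks (kb, from 0) that touch the window of each of 9 receptor genes, with 1 bar per region (PVT, COR, CP, NAC) from the merged peak set of that region's 4 libraries, so no error bar applies. Gabbr2, with 282 kb in the PVT, 170.0 kb in COR, 10.4 kb in CP and 14.4 kb in NAC, has the longest PVT bar, and Grm3, Grm5 and Gria3 are shortest in the PVT.

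Of the 36 genes, Gabbr2 had the most DNA under PVT peaks. Gabbr2 (chr4:46662318-46991714), the subunit that couples GABA-B receptors to G proteins, had 282 kb under PVT peaks, which is 83.1% of its window, and its widest PVT peak (chr4:46791109-46846579) was 55.5 kb long. Grm4 (chr17:27422387-27513826), a group III metabotropic receptor found mostly on axon terminals, was covered nearly as fully, with 81.3 kb or 80.2% of its window in the PVT, against 0.625 kb in COR, 5.71 kb in CP and 14.3 kb in NAC. Grm3, a group II receptor found in neurons and astrocytes, ran the other way, with 7.61 kb in the PVT, 51.7 kb in COR, 27.5 kb in CP and 54.5 kb in NAC. Of the PVT peaks over receptor genes, 31.1% overlapped a COR peak, 21.9% a CP peak and 26.4% a NAC peak, against 28.4%, 19.1% and 25.1% of all PVT peaks. Peaks of all 3 other regions were overlapped by 8.98% of them, against 8.46% of all PVT peaks, so few sites of these genes were called in all 4 tables.

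Open chromatin and acetylation met at a minority of sites. Of 576 ATAC peaks over receptor genes, 249 (43.2%) lay under a PVT H3K27ac peak, against 42.6% of all ATAC peaks. Of 991 PVT H3K27ac peaks over receptor genes, 198 (19.98%) overlapped an ATAC peak, against 25.97% of all PVT H3K27ac peaks. The share differed widely between genes. In Gabbr2 14 of 16 ATAC peaks were acetylated, in Grm4 5 of 5, and in Grin2b, a glutamate-binding NMDA subunit, 20 of 25. In Grm3 the count was 2 of 14, in Grik2, a kainate channel subunit, 6 of 41, and in Grm7, a presynaptic group III receptor, 8 of 52. The share was high in Gabbr2 and Grm4, whose windows were mostly under peaks in the PVT, and low in Grm3, whose window was not.

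The level of H3K27ac over each gene was compared between the 4 regions on summed peak counts of the 16 libraries, scaled together. A peak in all 4 tables was present for 32 receptor genes, among 12036 genes tested; Grin2c, Grm6, Gabra6 and Gabrg1 were not tested. The values of each region are given in the order Polg 1, Polg 2, WT 1, WT 2, and calls are at an adjusted p under 0.05 by edgeR's quasi-likelihood test. Because peaks were called in each region separately, a summed level rises with the covered length, so the length stands beside the levels. H3K27ac per covered kb was close to that of other genes: the median over receptor genes was 10.5 CPM per kb in the PVT, 9.86 in COR, 18.9 in CP and 10.5 in NAC, against 9.32, 9.66, 18.3 and 10.97 over all genes.

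In PVT against COR, 3 of 32 receptor genes were higher and 3 lower, against 5.77% and 6.81% of all genes tested. In PVT against CP, 12 were higher and 4 lower, against 12.9% and 9.26% of all genes. In PVT against NAC, 6 were higher and 3 lower, against 6.78% and 7.52%. In COR against the striatum (the mean of CP and NAC), 3 were higher and 4 lower, against 9.41% and 5.72%. In CP against NAC, 1 was higher and 2 lower, against 1.19% and 3.73%. The counts in PVT against CP stood furthest above those of all genes, and the COR against striatum split moved to 6 higher and 4 lower with DESeq2 size factors. The median log2 change over receptor genes was 0.17 in PVT against COR (0.03 over all genes), 0.40 in PVT against CP (0.42), 0.42 in PVT against NAC (0.12), 0.32 in COR against the striatum (0.32) and 0.11 in CP against NAC (-0.19). The all-gene median of PVT against CP was 0.55 with DESeq2 size factors and 0.29 with total counts, so changes in that comparison stand on a shift of that size. With the covered length taken out as an offset, 0 of 32 genes were called in PVT against COR, PVT against NAC and COR against striatum, 9 (all lower) in PVT against CP and 5 (all higher) in CP against NAC. Of all 12036 genes, 1, 2 and 5 were called in the former comparisons, 1155 in PVT against CP and 591 in CP against NAC. The all-gene median was then -0.77 in PVT against CP and 0.63 in CP against NAC, and 10.6% and 82.7% of all calls were higher. Offset values in these comparisons, here and below, stand on shifts of that size. With that offset, Grm3 and Gria3 in PVT against CP and Gabbr2 in CP against NAC were the calls that kept their direction. A called difference between regions was therefore, for nearly all genes, also a difference in how much of the gene was under peaks.

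**Figure D2:**
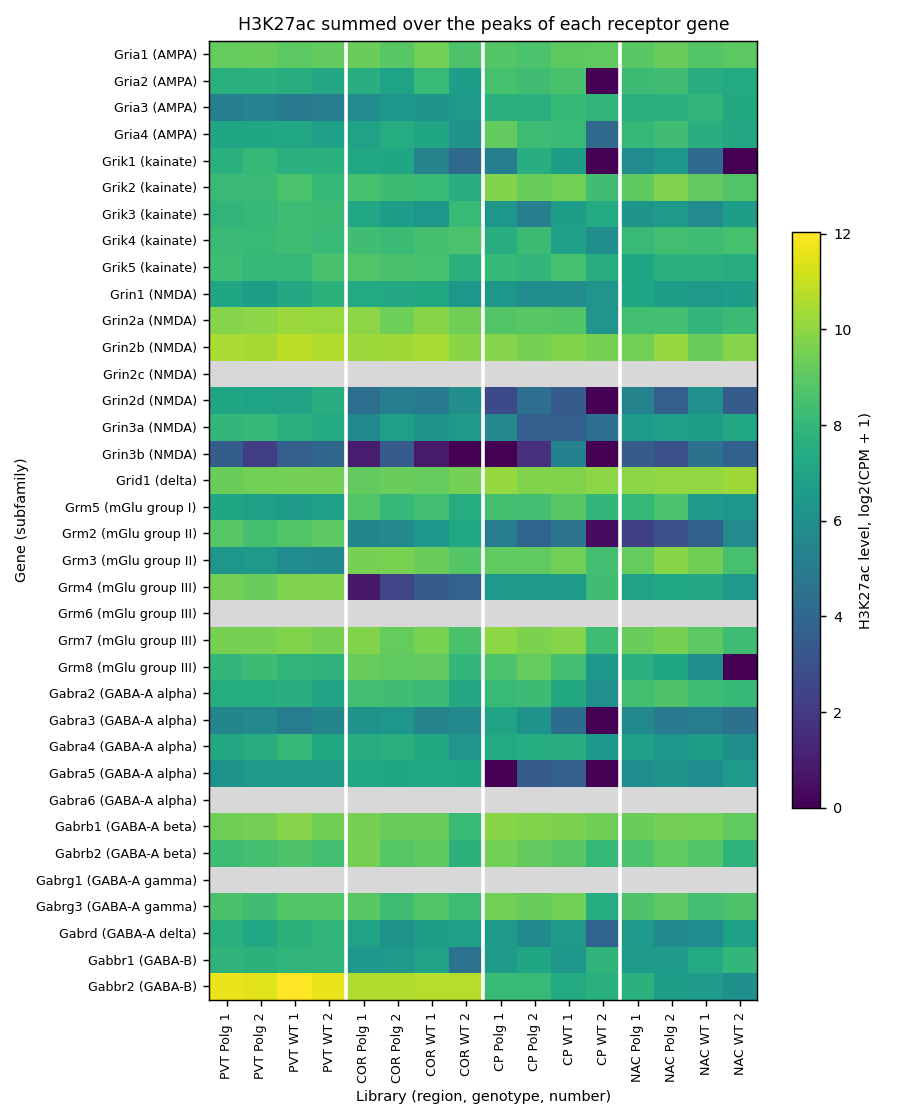
Summed H3K27ac of each receptor gene, as log2(CPM + 1) by colour, in 16 libraries (columns, by region PVT, COR, CP, NAC, with the Polg libraries left of the WT libraries) and with genes in rows by subfamily; grey rows were not tested. Gabbr2 and Grm4 are high in all 4 PVT columns, and Grm3 and Gria3 are low in all 4 PVT columns; the CP WT column numbered 2 is at 0 for Gria2, Grik1, Grin2d, Grin3b, Gabra3 and Gabra5.

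Among GABA-B genes, both subunits were higher in the PVT than in COR. Gabbr2 had 3213, 2896, 4166 and 3235 CPM in the PVT, 1523, 1557, 1629 and 1663 CPM in COR, 286, 276, 162 and 196 CPM in CP and 204, 106, 94.7 and 64.6 CPM in NAC. All 4 PVT libraries exceeded all 4 COR libraries, which exceeded all CP and NAC libraries. The log2 difference was 1.08 (SE 0.21, adjusted p = 0.00410) against COR, 3.91 (SE 0.23, adjusted p = 1.02e-06) against CP and 4.92 (SE 0.24, adjusted p = 2.72e-07) against NAC. Gabbr2 was also higher in COR than in the striatum, by 3.33 (SE 0.17, adjusted p = 5.29e-07), and in CP than in NAC, by 1.01 (SE 0.21, adjusted p = 0.0170); the last lost its call without the NAC WT library numbered 2 (0.89, adjusted p = 0.0557). Per covered kb it had 11.98 CPM in the PVT, 9.37 in COR, 22.0 in CP and 8.13 in NAC, and with the length offset PVT against CP turned to -0.85 (adjusted p = 0.0241) while CP against NAC was 1.48. Gabbr2 in CP against NAC turned to -2.19 (adjusted p = 0.319) over peaks shared by all 4 tables and to -2.72 (adjusted p = 0.226) over gene-end peaks. Gabbr1, the GABA-binding partner, had 227, 213, 235 and 241 CPM in the PVT, 83.4, 85.6, 120.5 and 23.1 CPM in COR, 94.4, 135, 80.9 and 224 CPM in CP and 97.4, 97.8, 161 and 246 CPM in NAC. It was higher in the PVT than in COR by 1.55 (SE 0.46, adjusted p = 0.0462), with no overlap between those regions, but this call held in 3 of 16 fits that each left out 1 library (adjusted p = 0.141 without the COR Polg library numbered 1). Here and below, the 16 fits include those without a library of a region not compared, which enters only through scaling and the shared spread. In PVT against CP, 15 of 16 calls were kept without the COR Polg library numbered 1, and 10 without the PVT one.

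GABA-A genes gave few calls between regions. Of the 8 tested, 2 were higher in the PVT than in CP, and no GABA-A gene was called in the other 4 comparisons. Both, like Grin1 and Grin2d below, stand beyond the naming rule and were chosen after their values were seen. Gabrd, a subunit of extrasynaptic receptors that carry tonic inhibition in the thalamus, had 196, 149, 209 and 233 CPM in the PVT, 123, 68.6, 102 and 117 CPM in COR, 92.0, 52.8, 86.7 and 13.9 CPM in CP and 87.8, 52.6, 57.5 and 113 CPM in NAC. Its PVT values were the highest of the 4 regions, and it was higher in the PVT than in CP by 1.69 (SE 0.52, adjusted p = 0.0338), a call kept in 9 of 16 leave-one-out fits. With the length offset this value turned to -1.01 (adjusted p = 0.235). Gabra5, an alpha subunit best known from the hippocampus, had 71.8, 89.3, 96.9 and 96.7 CPM in the PVT and 0, 9.46, 12.05 and 0 CPM in CP, where 0.835 kb was under peaks, and its difference of 4.03 (SE 1.34, adjusted p = 0.0486) held in 3 of 16 leave-one-out fits. Elsewhere Gabra2, an alpha subunit of synaptic receptors, came nearest to a call, with -0.95 (SE 0.30, adjusted p = 0.0512) in PVT against NAC. Gabra3 and Gabra4 had no call. The beta subunits Gabrb1 and Gabrb2 and the gamma subunit Gabrg3 stayed between -0.46 and 0.46 in all 5 comparisons, with no call.

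Among AMPA genes, Gria3 alone was called. Gria3 had 35.7, 39.1, 29.8 and 32.4 CPM in the PVT, 54.2, 82.3, 74.2 and 89.0 CPM in COR, 201, 200.04, 265 and 229.6 CPM in CP and 199, 200.1, 242 and 155 CPM in NAC, over 4.48, 6.43, 12.8 and 20.04 kb. Every PVT library was below every other library, and every COR library was below every striatal one. The log2 difference of the PVT was -1.13 (SE 0.27, adjusted p = 0.0164) against COR, -2.71 (SE 0.29, adjusted p = 4.07e-05) against CP and -2.55 (SE 0.29, adjusted p = 8.28e-05) against NAC, and COR was lower than the striatum with a log2 difference of -1.50 (SE 0.25, adjusted p = 0.00211). The COR call was kept in 11 of 16 leave-one-out fits. With the covered length as an offset PVT against CP was still called (-1.20, against a median of -0.77 over all genes). Gria1, Gria2 and Gria4, which encode the other pore-forming AMPA subunits, had no adjusted p under 0.05, and PVT against COR differed by 0.01, 0.12 and 0.10 on the log2 scale.

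Kainate genes split by subunit. Grik3, a low-affinity subunit, had 235, 254, 317 and 298 CPM in the PVT, 143, 105, 82.1 and 279 CPM in COR, 81.9, 36.5, 103 and 163 CPM in CP and 73.3, 94.1, 55.4 and 106 CPM in NAC. Its PVT libraries lay above all CP and NAC libraries, with a log2 difference of 1.63 (SE 0.42, adjusted p = 0.0148) against CP and 1.74 (SE 0.42, adjusted p = 0.0144) against NAC; against NAC the call was lost without the NAC Polg library numbered 1 (adjusted p = 0.066) and in 1 other leave-one-out fit. It was covered by 41.9 kb in the PVT and 4.42 kb in CP, and the length offset turned the CP value to -1.62. Grik4, a high-affinity subunit that needs a low-affinity partner, had 288, 271, 314 and 279.7 CPM in the PVT, 179.9, 305, 118 and 57.8 CPM in CP and 280.4, 329.7, 313 and 368 CPM in NAC. Its summed level was lowest in CP. PVT against CP gave 0.98 (SE 0.25, adjusted p = 0.0155) and CP against NAC gave -1.14 (SE 0.25, adjusted p = 0.0250), with 13 and 10 of 16 leave-one-out fits still calling it, and 1 CP library overlaps both other regions. With the length offset both turned, PVT against CP to a call the other way at -1.02 (adjusted p = 0.0277) and CP against NAC to 0.63, and over peaks shared by all 4 tables they were -0.37 and 0.60. The medians over all genes with the length offset were -0.77 and 0.63. Grik2, the most widely used low-affinity subunit, had 296, 296, 390.0 and 262 CPM in the PVT, 371, 306, 283 and 178 CPM in COR, 847, 593, 705 and 322 CPM in CP and 521, 830.3, 555 and 433 CPM in NAC. It was lower in the PVT than in CP with a log2 difference of -0.97 (SE 0.29, adjusted p = 0.0295) and lower in COR than in the striatum with a log2 difference of -1.09 (SE 0.26, adjusted p = 0.0148), with overlap in both. These Grik2 calls were kept in 11 and 13 of 16 leave-one-out fits. Grik1 and Grik5 were not called in any comparison.

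NMDA genes gave the most calls of any subfamily in PVT against CP, where 5 of 6 tested were higher and none lower, against 12.9% of all genes higher. All 5 turned negative with the length offset, so these calls are on summed levels that hold the covered length. The median over all genes was -0.77 with that offset, with Grin2b below it and the others above it. In PVT against NAC 2 of 6 were higher, and in PVT against COR none was called. Grin2a, which encodes the subunit that gives NMDA receptors fast decay, had 920.2, 967, 1187 and 1166 CPM in the PVT, 983, 662, 959 and 692 CPM in COR, 448, 485, 452 and 76.1 CPM in CP and 331, 344, 239 and 291 CPM in NAC. Its PVT and COR libraries lay above all striatal libraries, with 1.59 (SE 0.40, adjusted p = 0.0129) for PVT against CP, 1.82 (SE 0.40, adjusted p = 0.00868) for PVT against NAC and 1.35 (SE 0.32, adjusted p = 0.0154) for COR against the striatum. Grin2b, the slower-decaying and earlier-expressed partner, had 1429, 1351, 1766 and 1576 CPM in the PVT, 902, 754, 869.9 and 745 CPM in CP and 701, 1109, 639 and 923 CPM in NAC. The PVT lay above both, by 0.90 (SE 0.20, adjusted p = 0.00627) against CP and 0.86 (SE 0.20, adjusted p = 0.0113) against NAC. With the length offset Grin2b in PVT against CP was called the other way, at -0.96 (adjusted p = 0.0128), and Grin2a was -0.59 (adjusted p = 0.379). Without 1 library, Grin2a against CP (adjusted p = 0.0528 without the CP Polg library numbered 1), Grin2a in COR against the striatum (0.0776 without the COR Polg library numbered 1) and Grin2b against NAC (0.0501 without the NAC Polg library numbered 1) missed the threshold.

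Grin3a, a glycine-binding subunit that lowers calcium entry, had 249, 261, 199 and 164 CPM in the PVT, 53.8, 114, 74.4 and 92.1 CPM in COR, 49.1, 10.96, 11.1 and 19.7 CPM in CP and 92.3, 109, 107 and 145 CPM in NAC. Every PVT library was above every other, but the differences from COR (1.37, adjusted p = 0.0732) and NAC (0.93, adjusted p = 0.214) were not called, while PVT against CP was 3.32 (SE 0.49, adjusted p = 4.73e-04) and CP against NAC -2.39 (SE 0.47, adjusted p = 0.0146). Grin1, the obligatory NMDA subunit, had 133, 105, 154 and 209 CPM in the PVT and 81.9, 58.9, 58.7 and 77.2 CPM in CP, which gave 1.09 (SE 0.32, adjusted p = 0.0293). Its widest PVT peak also covers Anapc2, Lrrc26 and Tmem210, and over peaks that touch no other gene the difference was 1.299 (adjusted p = 0.201). Grin2d, a subunit of long-lasting receptors, had 137, 126, 129.6 and 179 CPM in the PVT, 19.4, 34.2, 30.2 and 60.3 CPM in COR, 5.43, 20.1, 10.2 and 0 CPM in CP and 40.8, 11.47, 66.6 and 10.1 CPM in NAC, and only PVT against CP was called, with 4.14 (SE 1.23, adjusted p = 0.0307). With the length offset the PVT against CP values were -0.58 for Grin3a, -0.63 for Grin1 and -0.61 for Grin2d, none of them called. Grin1 was still called in 11 and Grin2d in 10 of 16 leave-one-out fits. Grin2c, whose protein is found in relay thalamus and cerebellum, was not tested because CP had no peak, and it had 15.3 kb under PVT peaks, 0.610 kb in COR and 0.815 kb in NAC. Its widest PVT peak, 10.4 kb long, also overlaps Tmem104 and held 66.2% to 80.7% of its PVT counts. Grid1, the delta receptor that links to presynaptic neurexins, had 649, 706, 728 and 719 CPM in the PVT, 558, 617, 579.9 and 724 CPM in COR, 1099, 851, 870.0 and 985 CPM in CP and 985, 1091, 1074 and 1254 CPM in NAC. It was lower in the PVT than in NAC with a log2 difference of -0.65 (SE 0.15, adjusted p = 0.0130), kept in 13 of 16 leave-one-out fits, and lower in COR than in the striatum with a log2 difference of -0.72 (SE 0.14, adjusted p = 0.00430), without overlap in either pair.

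**Figure D3:**
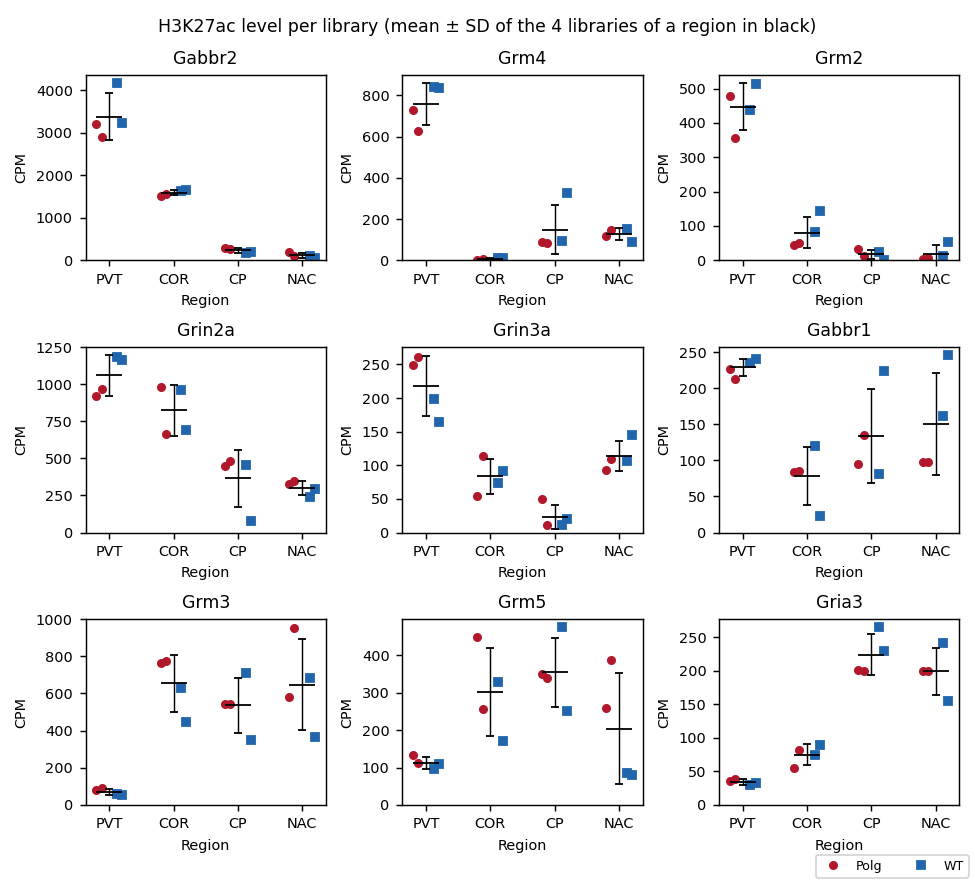
Summed H3K27ac (CPM) of 9 receptor genes in each of the 16 libraries, by region, with Polg libraries as circles left of the WT libraries as squares and the mean ± SD of the 4 libraries of a region in black. Gabbr2 lies between 2896 and 4166 CPM in the PVT and between 64.6 and 286 CPM in CP and NAC, whereas Gria3 lies between 29.8 and 39.1 CPM in the PVT and between 155 and 265 CPM in CP and NAC.

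Metabotropic glutamate receptors gave the widest contrasts. Grm4 had 729, 628, 839 and 834 CPM in the PVT, 0.770, 4.66, 10.2 and 13.2 CPM in COR, 89.4, 85.8, 92.1 and 327 CPM in CP and 119.4, 147, 149.7 and 88.0 CPM in NAC. The PVT was above all other libraries and COR below all others, and PVT exceeded COR by 7.06 (SE 0.62, adjusted p = 1.96e-05), CP by 2.48 (SE 0.50, adjusted p = 0.00389) and NAC by 2.58 (SE 0.50, adjusted p = 0.00404), while COR was below the striatum with a log2 difference of -4.53 (SE 0.53, adjusted p = 2.13e-04). All 4 calls were kept in 16 of 16 leave-one-out fits, but none with the covered length as an offset. Grm7 and Grm8, the other tested group III receptors, were not called, with 1.82 (SE 0.92, adjusted p = 0.244) for Grm8 in PVT against NAC. Grm3 had 80.4, 88.4, 57.5 and 50.6 CPM in the PVT, 762, 775, 632 and 448 CPM in COR, 541, 543, 710.1 and 348 CPM in CP and 582, 955, 684 and 365 CPM in NAC. Every PVT library was below every other, with -3.25 (SE 0.30, adjusted p = 2.50e-05) against COR, -2.99 (SE 0.29, adjusted p = 2.42e-05) against CP and -3.23 (SE 0.30, adjusted p = 2.12e-05) against NAC. With the length offset Grm3 was still called against CP, at -1.13, where the median over all genes was -0.77. Grm5, the group I receptor, which signals through Gq, had 133, 112, 95.5 and 109 CPM in the PVT, 451, 258, 329.8 and 171 CPM in COR, 350.4, 341, 476 and 251 CPM in CP and 259, 389, 86.0 and 80.9 CPM in NAC. It was lower in the PVT than in COR with a log2 difference of -1.41 (SE 0.30, adjusted p = 0.00800) and than in CP with a log2 difference of -1.66 (SE 0.30, adjusted p = 0.00198), without overlap, whereas its NAC libraries spread on both sides of the PVT. With the length offset the COR value turned to 0.37.

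Grm2 (chr9:106644534-106656109), a group II receptor that acts as a presynaptic autoreceptor, had 479.7, 357, 438 and 514 CPM in the PVT, 45.2, 49.5, 83.2 and 143 CPM in COR, 32.5, 13.5, 23.0 and 0.333 CPM in CP and 3.88, 6.92, 12.4 and 54.5 CPM in NAC. The PVT was above all others, by 2.61 (adjusted p = 0.0651, not called) against COR, 4.76 (SE 0.93, adjusted p = 0.00311) against CP and 5.06 (SE 0.95, adjusted p = 0.00313) against NAC, and COR exceeded the striatum by 2.30 (SE 0.66, adjusted p = 0.0357). This last call was kept in 3 of 16 leave-one-out fits, and 1 NAC library overlaps COR. Much of the PVT value belongs to a shared domain: the peak at chr9:106652566-106680053, 27.5 kb long, also overlaps Tex264 and held 87.4% to 89.8% of the Grm2 counts in the PVT. The other PVT peaks of Grm2, 4 of 5, summed to 50.0 and 45.1 CPM in Polg libraries and 48.4 and 52.4 CPM in WT libraries. Over peaks that touch no other gene, PVT against CP was 1.70 (SE 0.99, adjusted p = 0.251), PVT against NAC 1.98 (SE 0.997, adjusted p = 0.231) and COR against the striatum 2.16 (SE 0.80, adjusted p = 0.0869). On those peaks Grik2 (-0.84, adjusted p = 0.054) and Gabra5 (3.68, adjusted p = 0.0863) also missed the threshold in PVT against CP. This setting was added after seeing the data.

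Genes that act with the receptors were called in both directions between regions. Of 17 auxiliary subunits, 3 were higher and 1 lower in PVT against COR, 1 and 3 against CP and 2 and 2 against NAC. Shisa9, an AMPA receptor accessory protein, was higher in the PVT against COR by 2.11 (adjusted p = 2.57e-05), CP by 1.36 (adjusted p = 3.29e-04) and NAC by 1.22 (adjusted p = 9.73e-04). Gsg1l, another AMPA accessory protein, was lower in the PVT in the same 3 comparisons, with a log2 difference of -1.05 (adjusted p = 0.0130), -1.79 (adjusted p = 3.11e-04) and -1.11 (adjusted p = 0.00868). Of 21 postsynaptic scaffolds, 1 was higher and 4 lower against COR, 4 and 8 against CP and 3 and 3 against NAC, with Dlgap2, a postsynaptic density protein, lower against all 3, with a log2 difference of -1.01 (adjusted p = 0.00571), -1.63 (adjusted p = 1.63e-04) and -1.90 (adjusted p = 7.52e-05). Of 11 genes of glutamate and GABA supply, 1 was higher and 1 lower against COR, 0 and 4 against CP and 2 and 4 against NAC. These small counts stand against 5.77% higher and 6.81% lower among all genes in PVT against COR, 12.9% and 9.26% against CP and 6.78% and 7.52% against NAC, so several are near the share over all genes. Gad1 and Gad2, which make GABA, were lower in the PVT than in CP with a log2 difference of -6.60 (adjusted p = 1.95e-05) and -3.37 (adjusted p = 4.79e-04). In COR against the striatum 1 auxiliary gene was higher and 4 lower, 4 scaffolds were higher and 5 lower, and 1 supply gene was higher and 5 lower, where 9.41% of all genes were higher and 5.72% lower. In CP against NAC only Cacng2 among the auxiliary genes, and Slc17a7 and Slc1a1 among the supply genes, were called. All were higher in CP, Cacng2 by 1.16 (adjusted p = 0.0309) and Slc1a1 by 1.42 (adjusted p = 0.0280), while no fold is given for Slc17a7, which was at 0 in 3 of 4 NAC libraries.

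Polg and WT libraries were then compared within each chromatin table, and no receptor gene and no receptor peak passed the threshold in any of the 5. In PVT H3K27ac 0 of 36 receptor genes and 0 of 983 receptor peaks were called, against 0% of genes and 0% of peaks in the whole table. The figures were 0 of 33 genes and 0 of 947 peaks in COR (0% and 0%), 0 of 34 and 0 of 699 in CP (0% and 0%), and 0 of 35 and 0 of 763 in NAC (0% of genes and 0.00476% of peaks). In the ATAC table they were 0 of 34 and 0 of 561 (0.0121% of genes and 0.00114% of peaks). At an unadjusted p under 0.05 stood 7 receptor genes in the PVT (19.4%, against 8.12% of all genes), 2 in COR (6.06%, against 5.66%), 1 in CP (2.94%, against 2.26%), 3 in NAC (8.57%, against 3.26%) and 4 in the ATAC table (11.8%, against 3.87%). DESeq2, in place of edgeR, called 1 receptor gene in the PVT (2.78%, against 2.04% of all genes), 2 in COR (6.06%, against 11.2%), 1 in CP (2.94%, against 7.39%), 4 in NAC (11.4%, against 4.37%) and 0 in the ATAC table (against 0.00601%). With 2 libraries a genotype, a count of 0 does not show that no gene differed. The labels do not say whether the libraries came from separate animals, so each p-value reflects the spread among these samples only, and that spread may be technical.

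**Figure D4:**
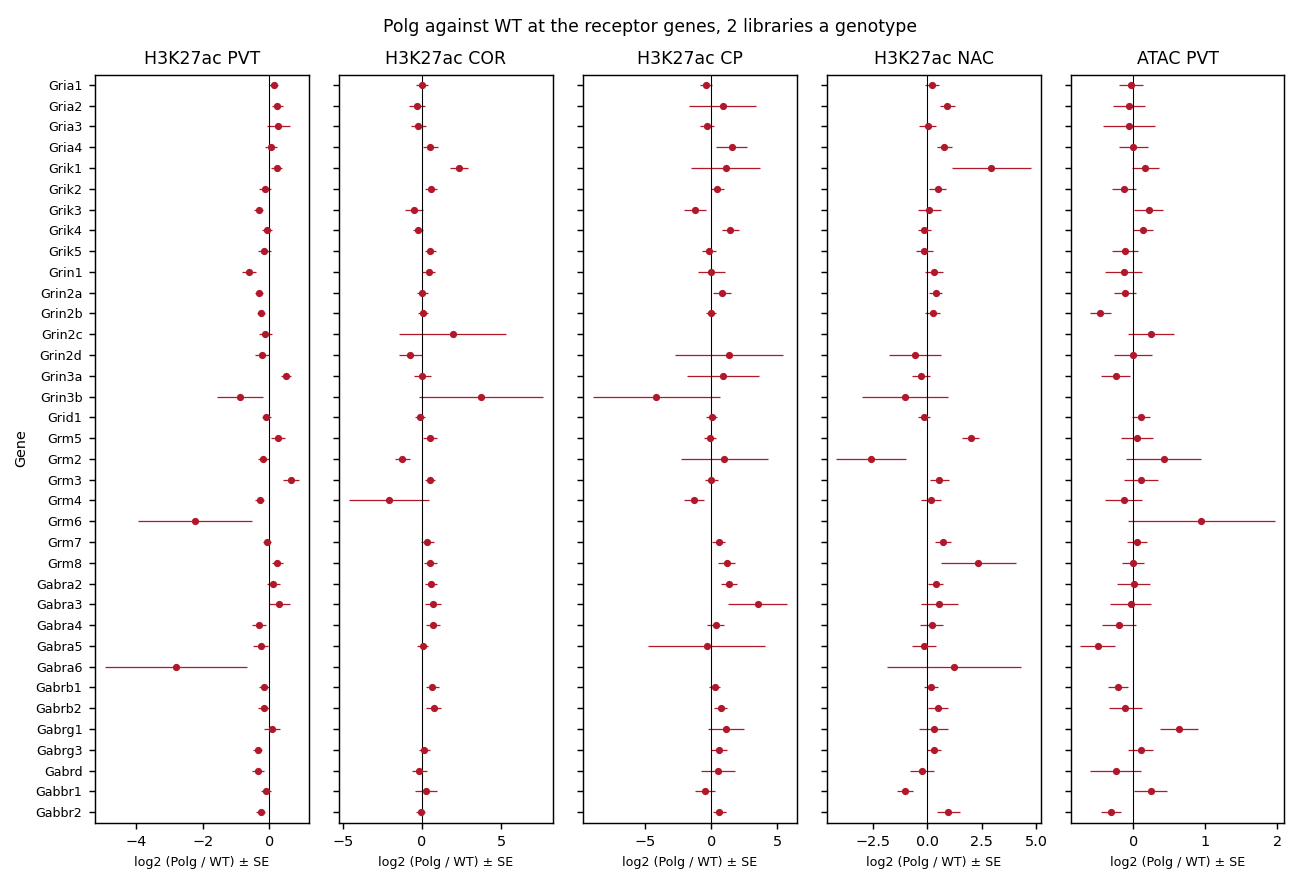
Polg over WT difference of each receptor gene on the log2 scale, with its SE, in the 4 H3K27ac tables and the PVT ATAC table, each from 2 Polg and 2 WT libraries. Each panel has its own axis, genes with a genotype at 0 in both libraries or no peak are left out, and no gene passes an adjusted p of 0.05 in any panel.

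In the PVT, the receptor genes with the smallest p were 2 NMDA subunits that went in opposite directions. Grin3a had 219 and 223 CPM in the Polg libraries, against 169 and 143 CPM in the WT libraries, a log2 difference of 0.50 (SE 0.16, adjusted p = 0.564). Grin1 had 116 and 89.6 CPM in the Polg libraries, against 131 and 182 CPM in the WT libraries, a difference of -0.60 (SE 0.21, adjusted p = 0.564). In both genes the genotypes do not overlap, but neither difference passes once adjusted over 15670 genes. Grin2a, which DESeq2 called, had a log2 difference of -0.31 (SE 0.12, adjusted p = 0.564) under edgeR. The median over 36 receptor genes was -0.13, against 0.00 over all genes, with 12 of 36 above 0. The single receptor peak with the smallest p lay within Grm4 (chr17:27429370-27436220), with 21.9 and 17.7 CPM in Polg libraries, against 43.1 and 55.5 CPM in WT libraries (log2 -1.32, SE 0.28, adjusted p = 0.556).

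In COR, Grik1, a low-affinity kainate subunit, had 138 and 129 CPM in the Polg libraries, against 37.4 and 15.8 CPM in the WT libraries, a difference of 2.33 (SE 0.55, adjusted p = 0.849). Grm2 had 42.5 and 46.1 CPM in the Polg libraries, against 76.4 and 133 CPM in the WT libraries, a difference of -1.24 (SE 0.50, adjusted p = 0.849). In CP, Gabra2, an alpha subunit of synaptic GABA-A receptors, had 282 and 292 CPM in the Polg libraries, against 154 and 69.6 CPM in the WT libraries, a difference of 1.36 (SE 0.60, adjusted p = 0.99990). Gabra6 had 23.5 and 28.4 CPM in the Polg libraries, against 0 and 0 CPM in the WT libraries, and no fold is given against libraries at 0. These genotype groups do not overlap, but the WT libraries of COR and CP differ widely between themselves. Leaving out the CP WT library numbered 1 gave 7 called receptor genes of 34 (20.6%, against 7.24% of all genes), all higher in Polg, in a fit that leaves 1 WT library, assumed to vary like the Polg pair. In NAC, Grm5 had 259 and 392 CPM in the Polg libraries, against 88.5 and 76.1 CPM in the WT libraries, a difference of 1.98 (SE 0.39, adjusted p = 0.99836), and Gria2, the subunit that makes AMPA channels impermeable to calcium, had 306 and 328 CPM in the Polg libraries, against 183 and 152 CPM in the WT libraries, a difference of 0.92 (SE 0.33, adjusted p = 0.99836). Without the NAC WT library numbered 1, Grm8, Grik1 and Grm5 were called (8.57%, against 9.29% of all genes), and Grm5 was then 2.10 (adjusted p = 0.0317). The WT libraries left in these CP and NAC fits had 80.8% and 69.6% of peaks at 0 counts. Of the genes called there, Gria2, Gabra3 and Grik1 were at 0 CPM in the CP library, and Grm8 and Grik1 in the NAC library. With all libraries, the receptor medians were 0.26 in COR (0.01 over all genes), 0.53 in CP (0.18) and 0.29 in NAC (0.16).

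Peaks with the smallest p in these tables had no counts in 1 genotype. In COR a Gabrg3 peak (chr7:57331256-57332344) had 0 CPM in both Polg libraries, against 1.32 and 44.1 CPM in WT libraries. In CP a Grm7 peak (chr6:110815138-110815855) had 50.7 and 23.5 CPM in Polg libraries, against 0 CPM in both WT libraries. In NAC a Grin2b peak (chr6:135826714-135828171) had 0 CPM in both Polg libraries, against 11.96 and 55.6 CPM in WT libraries (adjusted p = 0.233). In the COR and NAC examples the 2 WT libraries also differed several-fold from each other.

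Chromatin accessibility in the PVT gave small differences. Grin2b had 229 and 240.0 CPM in the Polg libraries, against 328 and 318 CPM in the WT libraries, a difference of -0.46 (SE 0.15, adjusted p = 0.948). Gabrg1, a gamma subunit, had 61.7 and 72.9 CPM in the Polg libraries, against 39.2 and 48.9 CPM in the WT libraries, a difference of 0.63 (SE 0.27, adjusted p = 0.99988). Both pairs of genotypes were without overlap, and the strain labels differ with them. PVT H3K27ac of Grin2b was -0.25 (SE 0.12, adjusted p = 0.620). In the ATAC table the receptor peak with the smallest p lay in Grid1 (chr14:35585294-35585616), with 11.9 and 7.43 CPM in Polg libraries, against 0 and 1.11 CPM in WT libraries.

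Whether the genotype difference itself changed with region was tested in the 16 H3K27ac libraries. No receptor gene of 32 was called, against 0.399% of all genes, and 3 had an unadjusted p under 0.05. Grik4 had the smallest adjusted p, 0.433 by edgeR and 0.0419 by DESeq2, followed by Grm5 with 0.506 by edgeR. Without the CP WT library numbered 1 the count was 8 (25%, against 14.7% of all genes), in a fit whose 1 CP WT library is the sparse one, and without the NAC WT library numbered 1 it was 1, Grm8 (against 1.51% of all genes). Among the partner genes, Abat, which breaks down GABA, was called by edgeR (adjusted p = 2.43e-05). No fold or direction is given for Abat, because its library values are not shown here. No gene of the auxiliary, scaffold or supply lists was called between genotypes in any single chromatin table.

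RNA of the receptor genes was measured in the 20 PVT libraries, and 0 of 36 were called in any of 8 comparisons. Of all 28446 genes tested, 0% were called between Polg and WT euthymic COX-positive libraries, 0% between COX-negative and COX-positive libraries in euthymic Polg, in depressive Polg or over both states, 0% between depressive and euthymic Polg within either COX class, and 0% for the COX class by state term. In depressive against euthymic Polg over both COX classes 1.24% of all genes were called, again with 0 receptor genes. At an unadjusted p under 0.05 stood 1 to 6 of the 36, or 2.78% to 16.7%, against 15.3% to 22.8% of all genes, and the receptor share was the lower in each of the 8 comparisons. DESeq2 called up to 3 of the 31 receptor genes to which it gave an adjusted p (9.68%, in depressive against euthymic Polg over both COX classes, where it called 9.91% of all genes). At the spread of these libraries, a count of 0 does not show that no receptor gene differed. Median RNA counts followed gene length: the Spearman correlation between median CPM and genomic span was 0.974 over 36 receptor genes and 0.901 over 19684 genes, as a description in which all points share the same libraries. Grm8 had the highest median, 381 CPM, and Grin3b the lowest, 0.218 CPM; neither is corrected for length. Because the level of a gene in CPM grows with its span, levels are compared below only between libraries for the same gene.

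**Figure D5:**
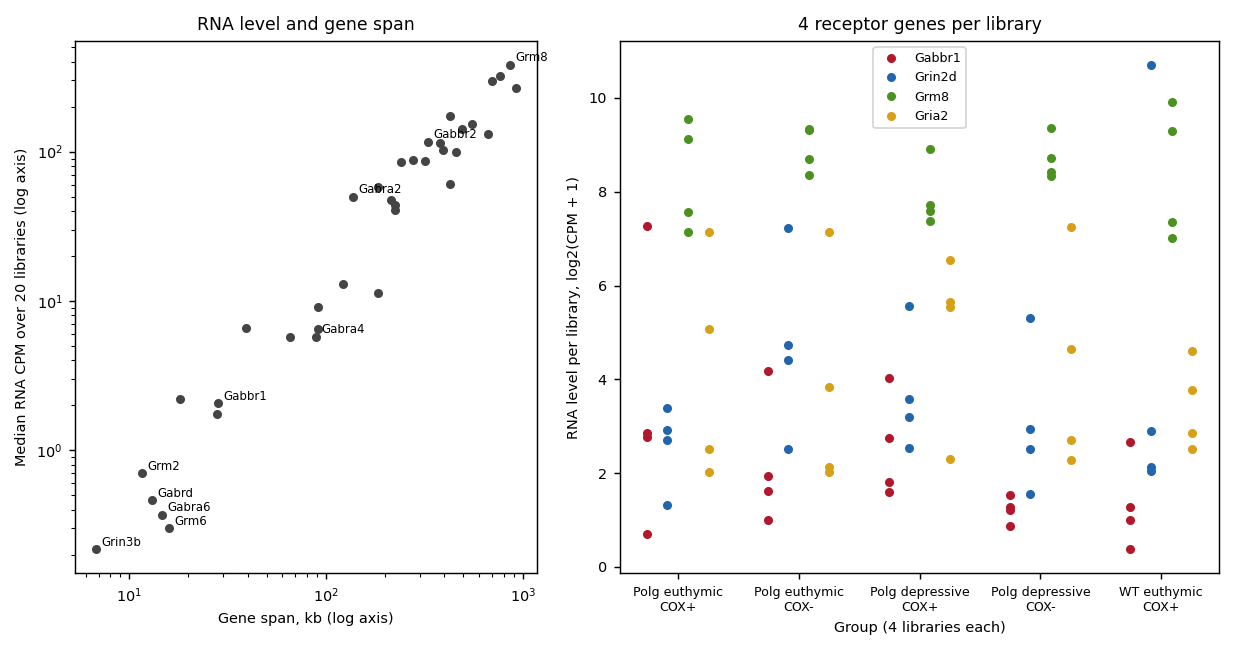
Left, median RNA level (CPM, log axis) of each receptor gene over 20 PVT libraries against its genomic span (kb, log axis). Right, log2(CPM + 1) of Gabbr1, Grin2d, Grm8 and Gria2 in each library of the 5 RNA groups, with the 4 Polg groups left of WT. Points climb with span on the left, and on the right the libraries of 1 group are spread over several log2 units.

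Between Polg and WT, the smallest p was for Grin2d. It had 9.42, 6.53, 1.51 and 5.57 CPM in Polg euthymic COX-positive libraries, against 3.12, 6.499, 1667 and 3.37 CPM in WT libraries, a log2 difference of -6.19 (SE 1.85, adjusted p = 0.197). A single WT library carried it, and without that library the difference was 0.41 (adjusted p = 0.93). Gabbr1 had 154, 5.83, 6.30 and 0.635 CPM in the Polg libraries, against 0.300, 1.42, 0.994 and 5.39 CPM in WT libraries, a difference of 4.36 (SE 1.69, adjusted p = 0.248). Its highest Polg library stood far above the rest and its lowest below several WT libraries, and without that highest library the difference was 1.66 (adjusted p = 0.590).

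Between COX classes, Grm6 in euthymic Polg had 0.162, 0.406, 0.392 and 0.224 CPM in COX-negative libraries, against 0.206, 6.01, 4.88 and 0.153 CPM in COX-positive libraries, a difference of -3.23 (SE 1.44, adjusted p = 0.197). In depressive Polg, Gabra4, an alpha subunit that pairs with the delta subunit in the thalamus, had 2.31, 4.47, 5.79 and 3.06 CPM in COX-negative libraries, against 35.2, 0.832, 49.3 and 38.7 CPM in COX-positive libraries, a difference of -2.99 (SE 1.46, adjusted p = 0.248). The classes overlap in both genes, for Gabra4 through 1 COX-positive library. Gabrg1 in euthymic Polg had 248, 11.9, 8.75 and 5.81 CPM in COX-negative libraries, against 3.40, 18.6, 5.94 and 2.67 CPM in COX-positive libraries, a difference of 3.16 (SE 1.58, adjusted p = 0.243). Without the highest COX-negative library it was 0.20 (adjusted p = 0.957). Grin3b in depressive Polg differed with a log2 difference of -5.81 (SE 1.92, adjusted p = 0.132). Over both states, Gabbr1 differed with a log2 difference of -2.54 (SE 1.10, adjusted p = 0.163) and Grm6 with a log2 difference of -2.10 (SE 0.98, adjusted p = 0.194), and without 1 COX-positive library each these were as small as -0.98 and -1.26.

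Between states, Grin3b, a glycine-binding NMDA subunit with the lowest median of all 36, had 0.329, 30.4, 35.5 and 0.0433 CPM in depressive COX-positive libraries, against 0.0883, 0, 0.0359 and 0.0876 CPM in euthymic COX-positive libraries, a difference of 8.25 (SE 2.15, adjusted p = 0.136). The groups overlap, since 1 depressive library is below 2 euthymic ones. Over both COX classes Grin3b reached 3.63 (SE 1.24, adjusted p = 0.0860), and its COX class by state term had an adjusted p of 0.0603, or 0.0401 with no filter on low counts. The same term for Gabrg1 was -6.17 (SE 2.23, adjusted p = 0.107), and -2.25 without 1 depressive COX-positive library. Gabra6 in COX-negative libraries had 0.165, 137, 0.268 and 0.0658 CPM in the depressive group, against 0.568, 0.265, 0.272 and 0.224 CPM in the euthymic group, a difference of 6.68 (SE 2.24, adjusted p = 0.0931). It rests on 1 depressive library, without which the value was -1.004, and over both COX classes Gabra6 differed by 3.94 (SE 1.39, adjusted p = 0.0967), which fell to 0.10 (adjusted p = 0.973) without the same library. Grm4 in COX-negative libraries had 2.31, 1.55, 3.62 and 5.33 CPM in the depressive group, against 5.06, 22.6, 6.88 and 178 CPM in the euthymic group, a difference of -4.05 (SE 1.60, adjusted p = 0.131), and DESeq2 called it. Without the highest euthymic library it was -1.84 (adjusted p = 0.532). Gabrg1 had 383, 4.94, 3.61 and 11.3 CPM in depressive COX-positive libraries, against 3.40, 18.6, 5.94 and 2.67 CPM in euthymic COX-positive libraries, a difference of 3.71 (SE 1.62, adjusted p = 0.230). Without the highest depressive library the Gabrg1 value was 0.04 (adjusted p = 0.994). Of the partner lists, the supply gene Slc1a1, a neuronal glutamate transporter, was higher in depressive than in euthymic Polg libraries over both COX classes, by 4.58 (SE 1.11, adjusted p = 0.0485). The astrocyte marker S100b was also higher, by 5.24 (SE 1.35, adjusted p = 0.0491), and no other of the 6 astrocyte markers was called. Both lie close to the threshold, and their library values and leave-one-out fits are not given here. The part of Slc1a1 and S100b in the receptor values was not tested.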

How the data were processed

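H3K27ac ChIP-seq, ATAC-seq and RNA-seq of 40 libraries in 19 groups were used, and 4 input libraries, which mix the genotypes, were not. The deposited tables hold raw read counts made by the authors. Per the submitters' processing notes, STAR, HOMER, featureCounts from Subread and DESeq2 were used with mm10. Versions, peak thresholds, duplicate handling, strand use and the features counted for RNA were not given in the sources used here. Per the file headers, each chromatin table counts reads of its 4 libraries in 1 merged peak set, so peaks of different regions are not the same intervals. The TG columns were taken as the libraries labelled Polg. Counts of the deposited tables were used as they stand.

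Peak counts were summed per gene over the window of the gene span plus 5 kb, with gene positions from RefSeq GRCm38.p6, which is mm10. Tests used edgeR 4.0.16 in R 4.3.3 (TMM scaling, filterByExpr, robust quasi-likelihood F test, Benjamini-Hochberg adjustment over all features tested, threshold 0.05), with an SE of the log2 change taken as its size over the square root of F. Within each chromatin set, 2 Polg and 2 WT libraries were compared. Regions were compared in 1 model of 8 group means over 16 libraries with 8 residual degrees of freedom, and RNA in 1 model of 5 group means over 20 libraries with 15. CPM are counts scaled by TMM library sizes. The edgeR biological coefficient of variation was 0.22 for ATAC genes, 0.48 for PVT H3K27ac genes, 0.97 to 1.53 in the other regions and 1.36 for RNA. This spread and the depth both limit precision and were not separated. The edgeR gene fit was checked on simulated counts for the PVT and ATAC genotype tests, PVT against COR and RNA Polg against WT. At a low spread all changed genes were called, and so were some unchanged ones. At the fitted spread the RNA and region tests missed nearly all changed genes and the PVT genotype test missed most of the smaller changes. The simulated counts gave every gene the same common spread, whereas the real fits estimate it gene by gene. The real PVT against COR fit called 1514 of 12036 genes, so these misses do not measure the power of the real tests. Peak assignment, single-peak fits, the COR, CP and NAC genotype tests, DESeq2, voom and the region by genotype test were not simulated.

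The 36 genes and the gene lists were chosen with earlier results of these data known. Values and tests are given for receptor genes past the threshold, at most 8 per direction by smallest p, or else for the 2 of smallest p, and likewise for the single receptor peak of smallest p. Alternatives were DESeq2 1.42.0, limma 3.58.1 voom for RNA, other scalings, filters and peak sets, the covered length as an offset, leaving out each library and a replicate block. Libraries of the same number did not deviate together: correlations of their deviations were -0.068 to 0.040 within tables and -0.0314 to 0.12 across regions, 1 of 12 over 0.1, so numbers were not taken as pairs.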

Additional observations from a re-analysis of the deposited data

Results flagged for a closer look

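Sets of 4 RNA libraries (1 gene in 1 group) were screened on the log2(CPM + 1) scale. In 20 of 180 sets, a library's distance from its nearest neighbour exceeded Dixon's 95% limit as a share of the whole range. That limit is passed by about 1 in 20 sets of independent, normally distributed values. The genes share the same libraries and normality was not tested, so 20 of 180 cannot be set against chance. In 15 of the 20 flagged sets the far library was the highest, and 13 genes were involved. The sets fell in all groups, with 2 in Polg euthymic COX-positive, 4 in Polg euthymic COX-negative, 5 in Polg depressive COX-positive, 4 in Polg depressive COX-negative and 5 in WT euthymic COX-positive libraries.

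In Polg euthymic COX-positive libraries, Grm5 reached 401 CPM in 1 library with the next at 165 CPM, and Gabrb1 reached 429 CPM with the next at 128 CPM. In Polg euthymic COX-negative libraries, Grin1 reached 12 CPM with the next at 0.568 CPM and Gabra6 reached 0.568 CPM with the next at 0.271 CPM. There Grid1 was as low as 57.1 CPM with the next at 314 CPM, and Gabbr2 as low as 80.1 CPM with the next at 203 CPM.

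In Polg depressive COX-positive libraries, Grik5 reached 82 CPM (next 7.1), Grin2b 284 CPM (next 102), Grm6 1.46 CPM (next 0.141) and Gabra6 14.2 CPM (next 0.394), while Gabra4 was as low as 0.832 CPM (next 35.2). In Polg depressive COX-negative libraries, Grin3b reached 0.724 CPM (next 0.165) and Gabra6 137 CPM (next 0.268), while Grin2b was as low as 33 CPM (next 137) and Grid1 as low as 24.8 CPM (next 317).

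In WT euthymic COX-positive libraries, Grik5 reached 1565 CPM (next 4.95), Grin2d 1667 CPM (next 6.499), Grm5 1138 CPM (next 108), Gabbr2 747 CPM (next 51.4) and Gabra3 42.8 CPM (next 36.8). What sets these libraries apart was not tested.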

How the results depend on the processing

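Between genotypes, DESeq2 called 1 receptor gene and 83 receptor peaks in the PVT, 2 and 179 in COR, 1 and 273 in CP and 4 and 15 in NAC, in place of 0 under edgeR. Of the peaks with an adjusted p this is 8.38% of receptor peaks in the PVT (10.4% of all peaks), 17.6% in COR (26.6%), 30.4% in CP (30.6%) and 2.42% in NAC (1.96%). In NAC 1 receptor peak was called with DESeq2 size factors, with total counts and with no filter. Leaving out 1 library gave 0 to 7 genes and 0 to 34 peaks in CP and 0 to 3 genes and 0 to 2 peaks in NAC, and 0 in the PVT, COR and ATAC tables. With a replicate block 0 genes and 0 peaks were called in each table.

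Between regions, in the order PVT against COR, PVT against CP, PVT against NAC, COR against the striatum and CP against NAC, 6, 16, 9, 7 and 3 receptor genes were called. The counts became 0, 9, 0, 0 and 5 with the covered length as an offset, against 1, 1155, 2, 5 and 591 of 12036 genes. Over peaks shared by all 4 tables they were 2, 5, 6, 3 and 1 of the 26 receptor genes still tested, against 335, 671, 362, 389 and 193 of 5401 genes. Over gene-end peaks they were 0, 3, 0, 0 and 1 of the 18 still tested, against 70, 405, 79, 149 and 201 of 5029 genes. The counts were 8, 16, 14, 11 and 6 by DESeq2, and 11, 22, 17, 11 and 7 without the 3 sparse WT libraries, a setting added after seeing the data. DESeq2 thus called 25%, 50%, 43.8%, 34.4% and 18.8% of receptor genes, against 22.3%, 37.2%, 26.1%, 31.0% and 20.4% of all genes, and the fit without the sparse libraries 34.4%, 68.8%, 53.1%, 34.4% and 21.9%, against 22.8%, 33.8%, 24.7%, 22.1% and 10.6%. The counts were 5, 16, 12, 6 and 3 with a replicate block. Leaving out 1 library gave 4 to 8, 10 to 19, 7 to 16, 4 to 16 and 1 to 13. Region by genotype gave 1 by DESeq2, 0 with the replicate block and 0 to 8 without 1 library (14.7% of all genes in the fit that gave 8).

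Direction turned with the covered length as an offset in PVT against COR for Grm5 (0.37); in PVT against CP for Gabbr2 (-0.85), Grin3a (-0.58), Grm2 (-0.34), Grm4 (-1.36), Grin2b (-0.96), Grin2a (-0.59), Grik3 (-1.62), Grik4 (-1.02), Grin1 (-0.63), Grin2d (-0.61) and Gabrd (-1.01); in PVT against NAC for Grik3 (-0.87); in COR against the striatum for Gabbr2 (-0.46), Grin2a (-0.22) and Grm2 (-0.32); and in CP against NAC for Grin3a (0.54) and Grik4 (0.63). Over shared peaks it turned for Grik4 (-0.37) and Grik2 (0.25) in PVT against CP, Grik3 (-1.09) in PVT against NAC, and Gabbr2 (-2.19) and Grik4 (0.60) in CP against NAC. Over gene-end peaks it turned for Grin2b (-0.25) and Grik3 (-0.90) in PVT against NAC, Grid1 (0.22) in COR against the striatum and Gabbr2 (-2.72) in CP against NAC. With the offset the median over all genes was 0.01 in PVT against COR, -0.77 in PVT against CP and -0.16 in PVT against NAC. It was -0.45 in COR against the striatum and 0.63 in CP against NAC. These settings change which bases are counted or divide by them, and beyond that the cause was not tested.

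In RNA, DESeq2 called 1 receptor gene between COX classes in depressive Polg, 1 and 2 between states in COX-positive and COX-negative Polg, 3 over both classes and 1 for COX class by state, where no filter also gave 1. Over all genes, DESeq2 called 2019, 1733, 2537, 2110 and 1976 in the same order. Leaving out 1 library turned Grin2d between Polg and WT (-6.55 to 0.41) and Gabra6 between states in COX-negative Polg (-1.004 to 7.51). No paired analysis was possible for RNA because its columns carry no replicate numbers. Over these and the remaining alternatives, 424 counts of calls stayed within 1.5 times the reported count and 54 did not, and of the changes of single genes 1407 kept direction and side of the threshold, 114 lost the call, 13 gained one and 26 turned.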
